A study of Mus musculus with 12 samples.

Results

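Prostaglandins are lipid mediators made from arachidonic acid, and the genes of 10 enzymes that make or break them down were followed in mouse lung. The set was taken by gene symbol from a table of 49585 genes, and all 10 were found, each on 1 row: Ptgs1, Ptgs2, Ptges, Ptges2, Ptges3, Hpgds, Ptgds, Ptgis, Tbxas1 and Hpgd. Poly-A RNA was sequenced from whole lung in 4 groups of 3 libraries (12 in all) for a study of asthma that centred on Rgs4, a regulator of G protein signalling. KO_Af and KO_PBS came from Rgs4 knockout mice exposed to Aspergillus fumigatus (Af, a mould, spelled Aspergillus funigatus in the treatment label) or to phosphate-buffered saline (PBS). WT_Af and WT_PBS came from wild-type mice given the same exposures, and the strain label of all 4 groups is Balb/cJ. The age and sex of the mice, how the knockout was made, and the form, route, dose and duration of the Af exposure were not stated in the labels or notes used here. Nothing in the labels says that the libraries of a group came from separate mice, so p-values measure the spread between libraries.

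Recovered depth was 20708884 to 30229446 reads per library. Rgs4 was at 0.571 to 1.47 CPM in the 6 KO libraries and at 20.7 to 48.8 CPM in the 6 WT libraries, so each library fitted its genotype label. All 8 markers of alveolar type 2 cells, 7 of alveolar type 1 cells and 10 of capillary endothelium were above 0 in at least 1 library. The alveolar type 2 markers summed to 16053 CPM or more in every library, which fits the lung label. Af and PBS libraries lay apart on principal component 1 (68.4% of the variance), and KO_Af 12 stood apart on component 2 (8.41%). The library numbers in the labels, used here as names, run from 9 to 14 in KO and from 15 to 20 in WT, with PBS below Af in each genotype. Genotype can therefore not be told apart from library order. PBS and Af libraries alternate along that order in blocks of 3. Within each genotype, Af can likewise not be told apart from library order, since every PBS number is below every Af number. WT_PBS 15 differed from the other WT_PBS libraries in its cell markers, with a summed fibroblast level of 5662 CPM against 2737 and 2755 CPM, and a summed B cell level of 43.9 CPM against 157 and 156 CPM.

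Prostaglandin synthesis starts when phospholipases free arachidonic acid from membranes. The cyclooxygenases Ptgs1 (COX-1) and Ptgs2 (COX-2, classically the inducible form) turn it into prostaglandin H2, and terminal synthases then convert that intermediate. Ptges, Ptges2 and Ptges3 make prostaglandin E2, Hpgds and Ptgds make prostaglandin D2, Ptgis makes prostacyclin and Tbxas1 makes thromboxane A2. Hpgd, 15-hydroxyprostaglandin dehydrogenase, begins the breakdown of prostaglandins E2 and F2α, and the lung is a classical site of this clearance. In airways, prostaglandin D2 and thromboxane A2 are known as constrictors, while prostacyclin and prostaglandin E2 can relax smooth muscle.

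The 300 bases around the annotated start of 4 of these genes are shown, because they were the genes with the largest called increase in KO (Tbxas1), the only called decrease (Hpgd), the only called genotype difference (Ptges3) and the classical inducible enzyme (Ptgs2). Each window runs 5′ to 3′ on the gene's strand from 250 bases before the RefSeq start to 50 bases from it (GRCm38.p6). RefSeq windows were matched by symbol for 9 of the 10 genes, all but Ptgis. Capitals mark matches, on either strand, to TATAAA (the TATA box), GAANNTTC (the core of a heat shock element), TGACG (the core of a cAMP response element) or the nuclear factor kappa B consensus.
Ptgs2 (chr1:150099781-150100080, plus strand): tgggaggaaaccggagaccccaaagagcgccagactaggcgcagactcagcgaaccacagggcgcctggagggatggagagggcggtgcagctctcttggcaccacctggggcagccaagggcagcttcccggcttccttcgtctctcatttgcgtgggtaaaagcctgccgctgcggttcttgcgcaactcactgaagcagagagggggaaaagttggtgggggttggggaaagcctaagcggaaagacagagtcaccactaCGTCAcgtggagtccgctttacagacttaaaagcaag
Ptges3 (chr10:128058732-128059031, plus strand): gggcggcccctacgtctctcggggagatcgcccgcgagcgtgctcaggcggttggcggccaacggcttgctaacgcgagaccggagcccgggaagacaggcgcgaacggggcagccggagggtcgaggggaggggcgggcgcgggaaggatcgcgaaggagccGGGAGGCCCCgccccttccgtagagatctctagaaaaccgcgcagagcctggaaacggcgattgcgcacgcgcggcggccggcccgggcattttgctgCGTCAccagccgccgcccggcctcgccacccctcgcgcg
Tbxas1 (chr6:38918736-38919035, plus strand): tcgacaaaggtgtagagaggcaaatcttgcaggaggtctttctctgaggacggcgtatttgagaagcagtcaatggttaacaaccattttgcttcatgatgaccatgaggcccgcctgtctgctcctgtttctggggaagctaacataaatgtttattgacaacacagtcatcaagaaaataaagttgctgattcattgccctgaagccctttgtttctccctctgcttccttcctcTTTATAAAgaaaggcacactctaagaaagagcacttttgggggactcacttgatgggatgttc
Hpgd (chr8:56294302-56294601, plus strand): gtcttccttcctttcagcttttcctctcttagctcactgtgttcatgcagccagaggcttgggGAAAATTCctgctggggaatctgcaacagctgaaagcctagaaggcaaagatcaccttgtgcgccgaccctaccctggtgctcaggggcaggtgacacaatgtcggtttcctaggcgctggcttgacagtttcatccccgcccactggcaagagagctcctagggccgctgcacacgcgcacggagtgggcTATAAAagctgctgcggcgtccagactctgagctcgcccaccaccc
The Ptgs2 capitals are TGACG read on the opposite strand, and the same core stands in the Ptges3 window 12 to 16 bases past the start. Upstream in Ptges3, the capitals from base -87 to base -78 match the kappa B consensus on both strands. The Tbxas1 capitals hold TATAAA on the gene's strand from -11 to -6 and on the opposite strand from -13 to -8, and those of Hpgd hold TATAAA at 5 to 10 and GAANNTTC at -187 to -180. The RefSeq starts of Tbxas1, Hpgd and Ptges3 used here differ from the first base of the gene in the GENCODE annotation. That of Ptgs2 does not. The positions given from the start therefore depend on the annotation taken.

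Such matches were not rare. Of 32851 mouse windows of the same length, 13.6% held TATAAA, 7.86% held GAANNTTC, 20.8% held TGACG and 8.46% held the kappa B consensus. TATAAA was found in 2 of the 9 windows (Hpgd and Tbxas1), GAANNTTC in 2 (Hpgd and Ptges2), TGACG in 2 (Ptges3 and Ptgs2) and the kappa B consensus in 2 (Ptgds and Ptges3). Another sequence that was searched, CCAAT, was in 37.4% of all windows and in 0 of these 9. The Ptges3 window was 73.7% G or C and the Tbxas1 window 44.3%, against a median of 52.7% over all windows. These are matches of letters only and say nothing about binding.

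The genes lie on 5 chromosomes in GENCODE M21 (GRCm38). Chromosome 2 holds Ptgds (25466709 to 25470046, minus strand), Ptges (30889471 to 30929863, minus strand), Ptges2 (32395896 to 32405772, plus strand), Ptgs1 (36230426 to 36252272, plus strand) and Ptgis (167191805 to 167240604, minus strand). Chromosome 6 holds Tbxas1 (38875404 to 39084585, plus strand) and Hpgds (65117293 to 65144908, minus strand), and chromosomes 1, 8 and 10 hold Ptgs2 (150100031 to 150108227, plus strand), Hpgd (56294585 to 56321043, plus strand) and Ptges3 (128058954 to 128077272, plus strand). The labels and notes used here do not say if reads were counted by strand. Ptgs1, Ptgis and Tbxas1 share 148, 156 and 144 exon bases with a gene on the other strand, and those partner genes reached at most 2.21, 0.803 and 0.0472 CPM. The processed pseudogene Ptges3-ps reached at most 2.27 CPM.

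Levels are given in CPM (read counts relative to library size, after the authors' trimmed mean of M-values, TMM, scaling). Between genes they were compared per kilobase of the principal transcript. On that scale Hpgd was the most abundant of the 10 in every group, with means in CPM per kb (± SD, n = 3 each) of 99.3 ± 32.5 in KO_Af, 222 ± 23.5 in KO_PBS, 79.4 ± 11.8 in WT_Af and 160.3 ± 50.3 in WT_PBS. Ptges3 came next in every group, with means of 69.5 ± 7.91 in KO_Af, 43.4 ± 3.05 in KO_PBS, 75.6 ± 4.88 in WT_Af and 62.8 ± 2.98 in WT_PBS. The Hpgd range overlapped that of Ptges3 in both Af groups and lay above it in both PBS groups, and the Ptges3 range overlapped that of Ptgs1 in KO_Af.

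Places 3 and 4 changed with exposure. Under Af, Ptgs1 stood above Ptgis in both genotypes, with means per kb for Ptgs1 of 61.6 ± 12.6 in KO_Af and 56.6 ± 7.32 in WT_Af and for Ptgis of 44.1 ± 4.04 in KO_Af and 36.0 ± 0.789 in WT_Af. Their ranges met only in KO_Af. Under PBS the order was the reverse in both genotypes, with means per kb for Ptgs1 of 23.6 ± 1.69 in KO_PBS and 29.7 ± 4.53 in WT_PBS and for Ptgis of 37.3 ± 2.22 in KO_PBS and 38.9 ± 3.18 in WT_PBS, and no overlap.

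Tbxas1 and Ptges, at places 5 and 6, overlapped in KO_Af, WT_Af and WT_PBS. Ptgs2 followed, with means per kb of 10.6 ± 1.94 in KO_Af, 6.41 ± 0.261 in KO_PBS, 11.3 ± 0.636 in WT_Af and 7.21 ± 2.53 in WT_PBS, then Ptges2, Hpgds and, with the lowest mean in all groups, Ptgds. The ranges of Ptges and Ptgs2 overlapped in WT_PBS, and those of Hpgds and Ptgds in KO_PBS. Mean Ptgds levels were 0.239 to 0.766 CPM, from 2 to 24 reads per library. With all annotated exons as the length (9094 bases in place of 1990), Tbxas1 fell to place 7 under Af and to place 8 under PBS, so its place depends on the transcript taken.

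**Figure D1:**
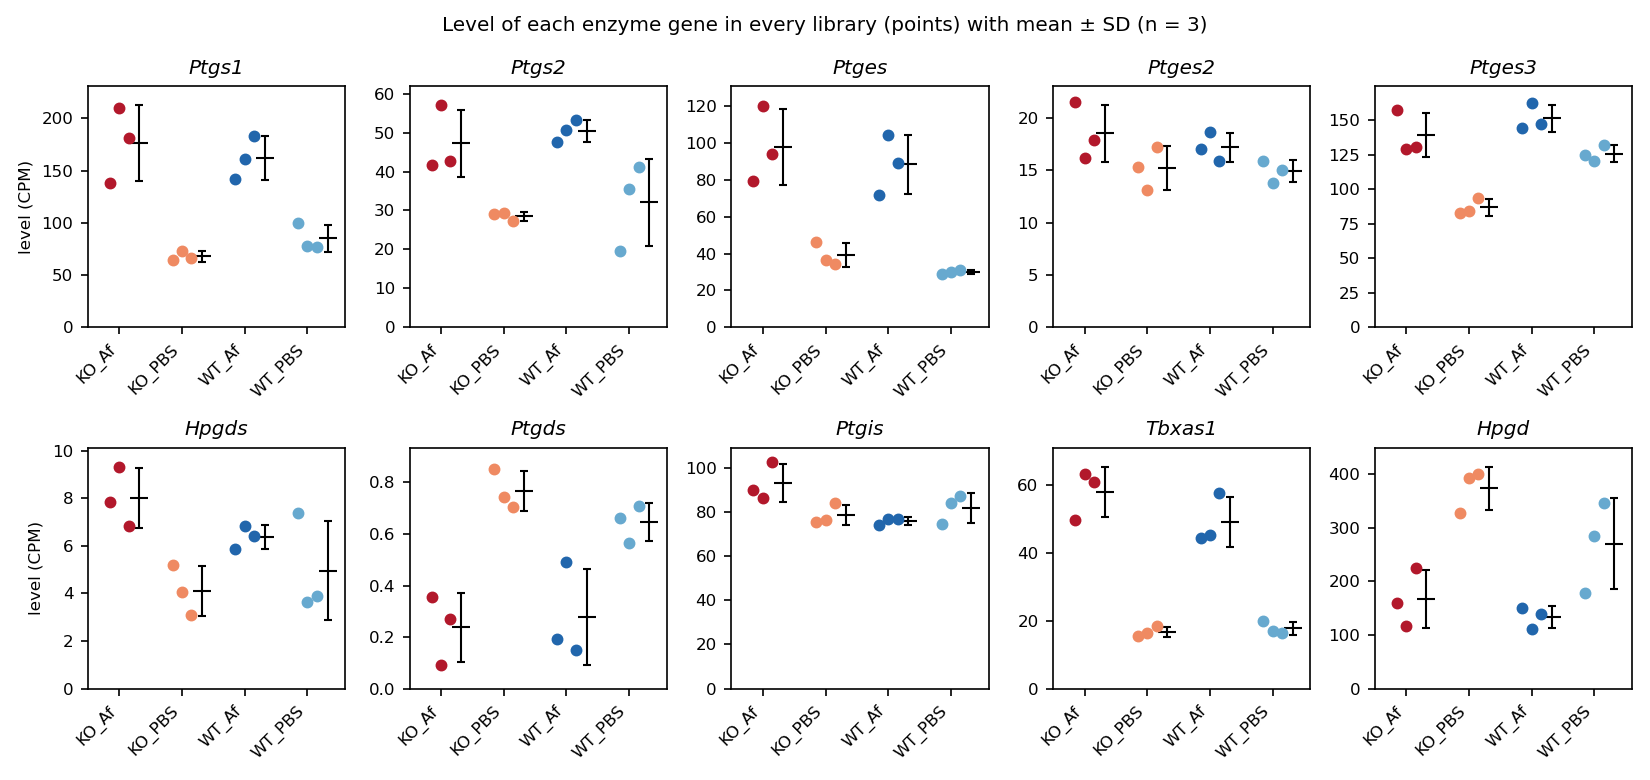
Level of each of the 10 enzyme genes (vertical axis, CPM, each panel from 0) in the 4 groups, KO_Af, KO_PBS, WT_Af and WT_PBS. Points are libraries and the black mark is the mean with its SD (n = 3). Ptgs1, Ptgs2 (by a small margin), Ptges and Tbxas1 lie higher in every Af library than in any PBS library, and Ptgds lies lower in every Af library.

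Most of the enzyme genes were called under Af, as were most of all genes tested. In KO lungs, 7 of the 9 enzyme genes that passed the filter on low levels were called higher under Af (Ptgs1, Ptgs2, Ptges, Ptges3, Hpgds, Ptgis and Tbxas1), 1 lower (Hpgd) and 1 not called (Ptges2). In WT lungs 5 were called higher (Ptgs1, Ptgs2, Ptges, Ptges3 and Tbxas1), 1 lower (Hpgd) and 3 not called (Ptges2, Hpgds and Ptgis). A call is an adjusted p under 0.05 in limma over all 16126 genes tested. Af moved much of the transcriptome, since 57.9% of all tested genes were called in KO and 51.8% in WT. Higher calls made up 28.7% of tested genes in KO and 26.2% in WT, and lower calls 29.2% in KO and 25.6% in WT. The median log2 change of the 9 was 0.70 in KO and 0.39 in WT, against -0.02 over all genes in both. The ranges of Af and PBS libraries did not overlap for 8 of the 9 in KO and 6 of the 9 in WT, where the shares over all genes were 62.9% and 65.4%, so the WT count was near that of all genes. Without WT_PBS 15 the WT count was again 5 higher and 1 lower, with Hpgds called in place of Ptges3. By size, 4.32% of all genes had a larger change than Tbxas1 in KO and 4.88% a larger one than Ptges in WT, while 71.4% exceeded Ptgis in KO. In whole lung, more or fewer cells of a type and more or less RNA per cell cannot be told apart.

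Both cyclooxygenase genes were called higher under Af in both genotypes. Ptgs1 was at 139, 210.2 and 181 CPM in KO_Af and 64.2, 73.3 and 65.8 CPM in KO_PBS. In WT it was at 142, 161 and 184 CPM under Af and 100.04, 78.1 and 77.0 CPM under PBS. Every Af library lay above every PBS library of both genotypes. The change was 2.56-fold in KO (log2 1.36 ± 0.15 SE, limma adjusted p = 2.39e-05) and 1.91-fold in WT (log2 0.93 ± 0.15 SE, adjusted p = 4.65e-04).

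Ptgs2 was at 41.7, 57.2 and 42.8 CPM in KO_Af and 29.1, 29.3 and 27.2 CPM in KO_PBS. The WT libraries were at 47.6, 50.6 and 53.2 CPM under Af and 19.5, 35.6 and 41.2 CPM under PBS. The ranges were apart within each genotype, and WT_PBS 15 was the lowest of all 12 libraries. Across genotypes the lowest Af library (KO_Af 12, 41.7 CPM) lay just above the highest PBS library (WT_PBS 17, 41.2 CPM). The change was 1.63-fold in KO (log2 0.70 ± 0.22 SE, limma adjusted p = 0.0163) and 1.64-fold in WT (log2 0.71 ± 0.22 SE, adjusted p = 0.0178). It was not called in KO without KO_Af 13 (log2 0.56, limma adjusted p = 0.0641), nor in WT without WT_Af 20 (adjusted p = 0.0523). The ratio of Ptgs2 to Ptgs1 within a library was 0.237 to 0.301 in KO_Af and 0.400 to 0.453 in KO_PBS. In WT it was 0.290 to 0.336 under Af and 0.195 to 0.535 under PBS, a range set by WT_PBS 15 at the low end and one that holds all the WT_Af values.

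Of the prostaglandin E2 synthases, Ptges and Ptges3 were called higher under Af in both genotypes and Ptges2 in neither. Ptges, the membrane-bound microsomal synthase that is classically induced with Ptgs2, was at 79.3, 120.2 and 94.0 CPM in KO_Af and 46.5, 36.7 and 34.3 CPM in KO_PBS. The WT libraries were at 72.0, 104 and 89.0 CPM under Af and 29.0, 29.7 and 30.9 CPM under PBS. The Af and PBS libraries did not overlap in either genotype. The change was 2.46-fold in KO (log2 1.30 ± 0.17 SE, limma adjusted p = 5.55e-05) and 2.90-fold in WT (log2 1.53 ± 0.17 SE, adjusted p = 2.38e-05).

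Ptges2, a second membrane-associated synthase, was at 21.6, 16.2 and 17.9 CPM in KO_Af and 15.3, 13.1 and 17.3 CPM in KO_PBS. In WT it was at 17.1, 18.6 and 15.9 CPM under Af and 15.9, 13.8 and 15.0 CPM under PBS. The groups overlapped in both genotypes. The log2 difference was 0.28 (95% interval -0.01 to 0.56, limma adjusted p = 0.0853) in KO and 0.20 (-0.08 to 0.48, adjusted p = 0.213) in WT. Without KO_Af 13 or KO_PBS 11 the KO difference was called (log2 0.37 in each, limma adjusted p = 0.0394 and 0.0431), and limma with array weights called Ptges2 in KO (log2 0.25, adjusted p = 0.0302) and WT (log2 0.30, adjusted p = 0.0146).

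Ptges3, the cytosolic synthase that is also known as p23, a cochaperone of HSP90, was at 157, 129 and 131 CPM in KO_Af and 82.4, 84.2 and 93.8 CPM in KO_PBS. The WT libraries were at 144, 162 and 147 CPM under Af and 124, 120.4 and 132 CPM under PBS. The ranges were apart in both genotypes, with the 3 KO_PBS libraries lowest of the 12. The change was 1.59-fold in KO (log2 0.67 ± 0.09 SE, limma adjusted p = 9.51e-05) and 1.20-fold in WT (log2 0.26 ± 0.09 SE, adjusted p = 0.0320). The WT call was lost without WT_Af 19 (adjusted p = 0.122), WT_Af 20 (0.0570), WT_PBS 15 (0.0722) or WT_PBS 16 (0.102), and with no filter on low levels (0.0507).

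**Figure D2:**
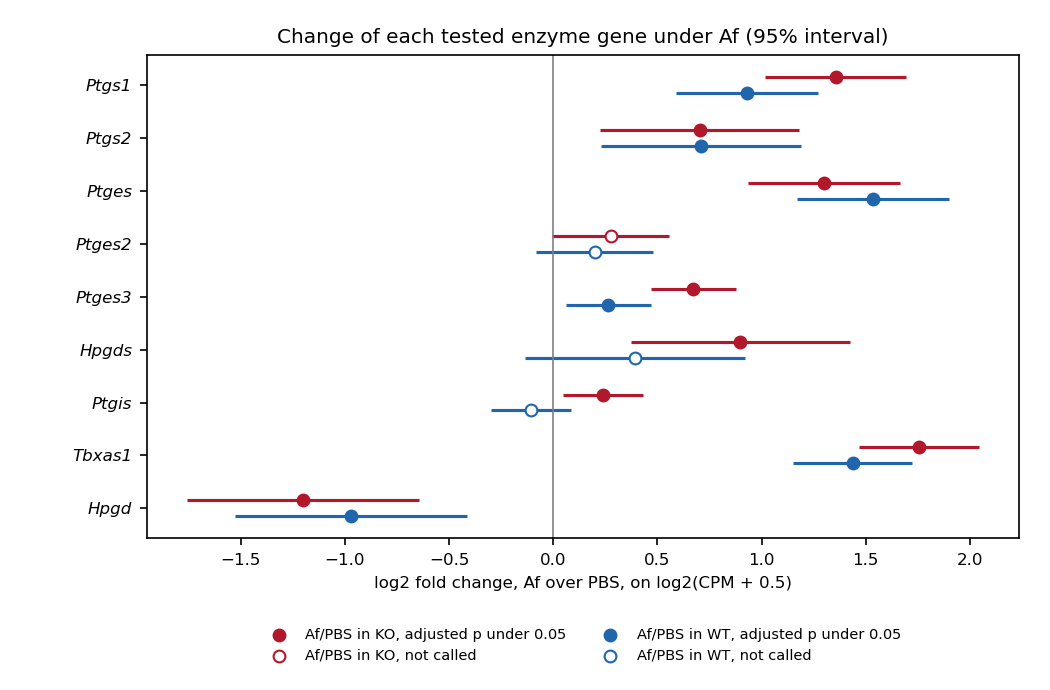
Log2 fold change under Af over PBS (horizontal axis, log2(CPM + 0.5) scale) of the 9 tested enzyme genes, in KO (red, upper) and WT (blue, lower). Points are limma estimates, lines their 95% intervals, and filled points have an adjusted p under 0.05. Tbxas1 in KO (1.76) and Ptges in WT (1.53) lie farthest to the right, and Hpgd is the only gene called lower (-1.20 in KO and -0.97 in WT).

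Of the prostaglandin D2 synthases, Hpgds was called higher under Af in KO, and Ptgds was lower in every Af library. Hpgds, the haematopoietic synthase known from mast cells and other immune cells, was at 7.83, 9.33 and 6.82 CPM in KO_Af and 5.19, 4.05 and 3.08 CPM in KO_PBS. Levels in WT were 5.85, 6.85 and 6.40 CPM under Af and 7.37, 3.64 and 3.87 CPM under PBS. The KO ranges were apart, while WT_PBS 15, the highest WT library, lay above all WT_Af libraries. The change was 1.86-fold in KO (log2 0.90 ± 0.24 SE, limma adjusted p = 0.00752). In WT it was log2 0.39 (95% interval -0.14 to 0.92, limma adjusted p = 0.192) and was called without WT_PBS 15 (log2 0.69, adjusted p = 0.0148) and with array weights (log2 0.65, adjusted p = 0.00832). The difference between the genotypes in this change was not called (log2 0.51, limma adjusted p = 0.667).

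Ptgds, the lipocalin-type synthase, stayed below the filter and was not in the fit. It was at 0.354, 0.0919 and 0.270 CPM in KO_Af (9, 2 and 7 reads) and 0.853, 0.743 and 0.703 CPM in KO_PBS (24, 20 and 16 reads). Levels in WT were 0.192, 0.491 and 0.150 CPM under Af (4, 15 and 4 reads) and 0.662, 0.564 and 0.709 CPM under PBS (16, 13 and 15 reads). All 6 Af libraries lay below all 6 PBS libraries. Averaged over both genotypes the difference was -0.69 on the log2(CPM + 0.5) scale, with a two-sided exact permutation p of 0.005 over 400 arrangements within genotype, the smallest they can give. That p is unadjusted, was computed for Ptgds alone, and follows from the separation of the libraries, so it adds no separate support. Within 1 genotype the smallest possible exact p is 0.1.

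With the low filter lifted, limma gave Ptgds a log2 change of -0.79 in KO (adjusted p = 0.00507) and -0.58 in WT (adjusted p = 0.0305). On genes with 10 or more reads in all, edgeR gave -1.64 in KO (adjusted p = 0.0178) and -1.15 in WT (adjusted p = 0.0868). The ratio of Hpgds to Ptgds within a library was 22.1 to 102 in KO_Af and 4.38 to 6.08 in KO_PBS, and in WT it was 13.9 to 42.8 under Af and 5.47 to 11.1 under PBS. These ratios rest on as few as 2 Ptgds reads.

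The synthases of thromboxane and prostacyclin, mediators known for opposite actions on platelets and vessels, were called higher under Af in both genotypes (Tbxas1) and in KO (Ptgis). Tbxas1 was at 49.6, 63.1 and 60.8 CPM in KO_Af and 15.4, 16.5 and 18.3 CPM in KO_PBS. Levels in WT were 44.3, 45.1 and 57.6 CPM under Af and 20.0, 17.0 and 16.2 CPM under PBS. Every Af library was above 44 CPM and every PBS library was at or below 20.0 CPM. The change was 3.38-fold in KO (log2 1.76 ± 0.13 SE, limma adjusted p = 1.12e-06) and 2.71-fold in WT (log2 1.44 ± 0.13 SE, adjusted p = 6.95e-06).

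Ptgis was at 90.1, 86.2 and 103 CPM in KO_Af and 75.6, 76.2 and 84.0 CPM in KO_PBS. WT levels were 73.9, 76.6 and 77.0 CPM under Af and 74.4, 84.0 and 87.3 CPM under PBS. The KO ranges were apart and the WT ranges overlapped. The change was 1.18-fold in KO (log2 0.24 ± 0.09 SE, limma adjusted p = 0.0341) and was not called in WT (log2 -0.11, 95% interval -0.30 to 0.08, adjusted p = 0.323). The KO call was lost when libraries were rescaled to the same total (log2 0.19, adjusted p = 0.0980), without the variance trend (0.0502), with the KO groups fitted alone (0.0878) and in edgeR on genes with 10 or more reads (0.0570). It was also lost without KO_Af 14 (0.132), KO_PBS 9 (0.109) or KO_PBS 10 (0.102). The ratio of Tbxas1 to Ptgis within a library was 0.550 to 0.731 in KO_Af and 0.203 to 0.218 in KO_PBS, and in WT it was 0.589 to 0.748 under Af and 0.186 to 0.269 under PBS.

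Hpgd, the breakdown enzyme, was the only one of the tested genes called lower. It was at 159, 117 and 225 CPM in KO_Af and 328, 392 and 400.1 CPM in KO_PBS. WT levels were 149.9, 111 and 139 CPM under Af and 179, 284 and 346 CPM under PBS. The ranges were apart within each genotype, although KO_Af 14 lay above WT_PBS 15. The change was 0.435-fold in KO (log2 -1.20 ± 0.25 SE, limma adjusted p = 0.00182) and 0.510-fold in WT (log2 -0.97 ± 0.25 SE, adjusted p = 0.00783). The ratio of Ptges to Hpgd within a library was 0.417 to 1.03 in KO_Af and 0.0858 to 0.142 in KO_PBS, and in WT it was 0.480 to 0.937 under Af and 0.0892 to 0.162 under PBS.

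**Figure D3:**
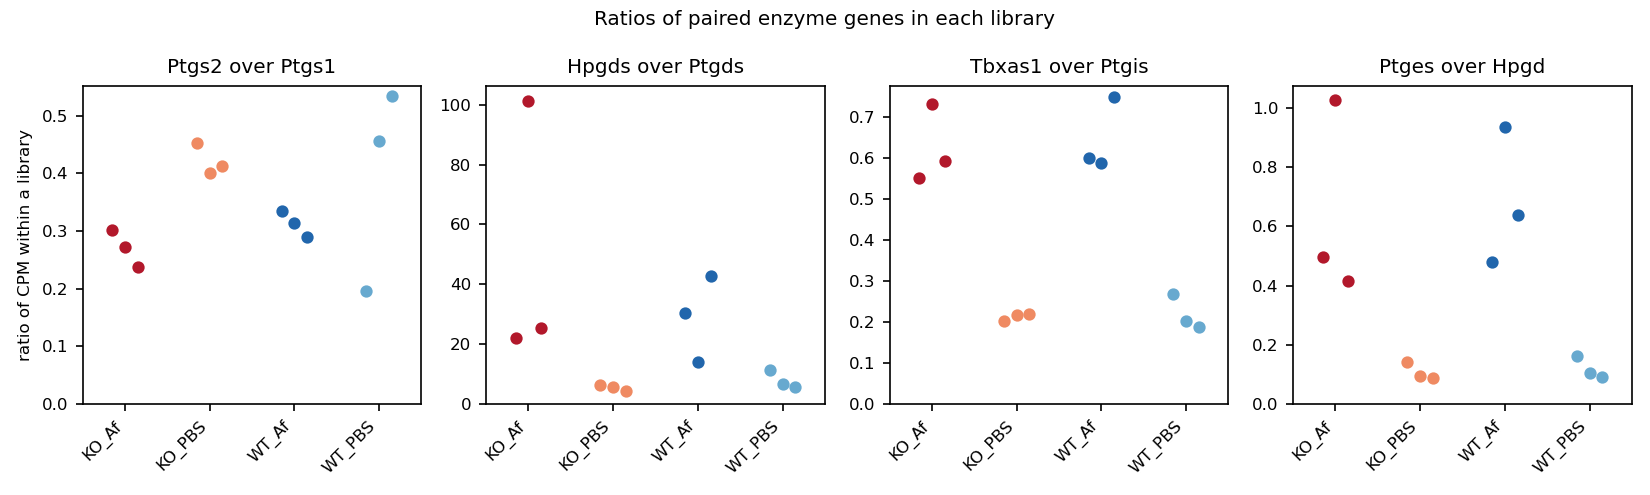
Ratio of the CPM of 2 enzyme genes within each library (vertical axis, no unit, from 0) for Ptgs2 over Ptgs1, Hpgds over Ptgds, Tbxas1 over Ptgis and Ptges over Hpgd, in KO_Af, KO_PBS, WT_Af and WT_PBS. Points are libraries. The last 3 ratios are higher in every Af library than in any PBS library, and the first falls within the WT_PBS range in WT_Af.

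Markers of several cell types moved with these genes. The alveolar macrophage list shares genes with the eosinophil list and with the capillary endothelium list. Their sums and calls are therefore not separate support for each cell type. Over all tested genes, 28.7% were called higher and 29.2% lower under Af in KO, and 26.2% and 25.6% in WT. The summed level of 8 neutrophil markers was 777 to 1107 CPM in KO_Af and 416 to 650 CPM in KO_PBS. In WT it was 565 to 770 CPM under Af and 271 to 502 CPM under PBS. Of these 8 markers, 3 were called higher in KO and 5 in WT, with 0 called lower. The summed level of 10 markers of monocytes and interstitial macrophages was 1489 to 1966 CPM in KO_Af and 560.2 to 598 CPM in KO_PBS, and in WT it was 1381 to 1528 CPM under Af and 531 to 666 CPM under PBS, with 8 of the 10 called higher and 1 lower in each genotype. For 10 alveolar macrophage markers the sum was 3683 to 4171 CPM in KO_Af and 643 to 738 CPM in KO_PBS, and in WT 3063 to 4263 CPM under Af and 602 to 652 CPM under PBS. Only 3 of those 10 were called higher in each genotype, with 3 called lower in KO and 4 in WT. For 8 eosinophil markers the sum was 257 to 411 CPM in KO_Af and 120.4 to 156 CPM in KO_PBS, and in WT 183 to 428 CPM under Af and 102 to 137 CPM under PBS, with 5 called higher in each genotype, 0 called lower in KO and 1 in WT.

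Of 10 mast cell markers, 6 were called higher and 1 lower in KO, and 4 higher and 0 lower in WT, yet their sum was 127 to 207 CPM in KO_Af and 285 to 310.1 CPM in KO_PBS, and 166 to 178 CPM in WT_Af and 187 to 217 CPM in WT_PBS. Kit, singled out after its values were seen, made up most of that sum (96.0 to 158 CPM in KO_Af and 275 to 296 CPM in KO_PBS). For 6 platelet markers, of which 4 passed the filter, the sum was 39.3 to 51.6 CPM in KO_Af and 21.3 to 28.1 CPM in KO_PBS, and in WT 30.7 to 42.9 CPM under Af and 14.6 to 22.5 CPM under PBS. Of those 4, 1 was called higher and 1 lower in KO, and 1 higher and 0 lower in WT. For 8 tuft cell markers the sum was 146 to 168 CPM in KO_Af and 59.3 to 65.1 CPM in KO_PBS, and in WT 128 to 147 CPM under Af and 54.8 to 57.8 CPM under PBS. Of the 5 that passed the filter, 3 were called higher and 0 lower in each genotype, while the other 3, Pou2f3, Trpm5 and Il25, stayed under 1 CPM in every library. The sum therefore rests on the 5 that passed and is not a measure of tuft cells.

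Among cells that line vessels and alveoli, most capillary and alveolar type 1 markers were called lower under Af in KO. For 10 capillary endothelium markers the sum was 2877 to 3727 CPM in KO_Af and 5561 to 5845 CPM in KO_PBS, and in WT 3209 to 3955 CPM under Af and 4047 to 4937 CPM under PBS, with 7 called lower in KO and 5 in WT. For 7 alveolar type 1 markers it was 1716 to 2979 CPM in KO_Af and 3173 to 4678 CPM in KO_PBS, and in WT 1577 to 2407 CPM under Af and 4077 to 4710 CPM under PBS, with 6 called lower in each genotype and 1, Pdpn, called higher in KO. For 8 alveolar type 2 markers the sums overlapped, at 16053 to 26638 CPM in KO_Af and 23643 to 25215 CPM in KO_PBS, and in WT at 17615 to 23726 CPM under Af and 20692 to 34343 CPM under PBS, with 1 called higher and 3 lower in each genotype.

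Markers of airway lining cells moved in both directions. For 7 goblet cell markers the sum was 1897 to 2003 CPM in KO_Af and 59.7 to 104 CPM in KO_PBS, and in WT 1465 to 1758 CPM under Af and 114 to 152 CPM under PBS, with 7 called higher in KO and 6 in WT. For 6 ciliated cell markers it was 207 to 281 CPM in KO_Af and 439 to 496 CPM in KO_PBS, and in WT 252 to 255 CPM under Af and 496 to 582 CPM under PBS, with 5 called lower in KO and 6 in WT. Of 6 club cell markers, 5 were called lower and 1 higher in each genotype. Outside the airway lining, 7 cardiac muscle markers summed to 124 to 547 CPM in KO_Af and 1050 to 1549 CPM in KO_PBS. In WT they summed to 135 to 601 CPM under Af and 978 to 1826 CPM under PBS. Of the 7, 4 were called lower in KO and 2 in WT, with 0 called higher. Among 7 smooth muscle markers, 4 were called higher in each genotype, with 1 called lower in KO and 0 in WT. Among 9 fibroblast markers, 3 were called higher and 3 lower in KO, and 2 higher and 4 lower in WT. Of 8 T cell markers, 0 were called higher and 1 lower in KO, and 7 higher and 0 lower in WT. The summed T cell level was 362 CPM in WT_Af 18, against 110 and 91.8 CPM in WT_Af 19 and WT_Af 20. Whether that change differed between genotypes was called for 0 of the 8. Of 6 B cell markers, 0 were called in KO, and 1 higher and 0 lower in WT. Of 6 mesothelium markers, 2 were called higher and 3 lower in KO, and 1 higher and 3 lower in WT. The part of these cell types in the changes of the enzyme genes was not tested.

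Few of the enzyme genes were called between KO and WT, a contrast that cannot be told apart from library order. Under PBS 1 of the 9 was called between KO and WT, Ptges3, which was lower in KO; 3.55% of all tested genes were called in this comparison, 1.9% higher and 1.66% lower. Ptges3 averaged 86.8 ± 6.10 CPM in KO_PBS and 126 ± 5.96 CPM in WT_PBS (SD, n = 3 each), and the highest KO_PBS library lay below the lowest WT_PBS library. The difference was log2 -0.53 ± 0.09 (SE), a fold of 0.691 (limma adjusted p = 0.0120). It was not called without KO_PBS 9 (limma adjusted p = 0.0587), KO_PBS 10 (0.0688) or WT_PBS 17 (log2 -0.50, adjusted p = 0.0518).

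Of the other 8 under PBS, Ptges was higher in every KO_PBS than in every WT_PBS library (log2 0.37, 95% interval 0.01 to 0.74, limma adjusted p = 0.275). Ptgs1 was lower in every KO_PBS library (log2 -0.32, 95% interval -0.66 to 0.02, adjusted p = 0.326). Neither was called, and 33.1% of all genes had such separate ranges. Hpgd averaged 373 ± 39.6 CPM in KO_PBS and 269.8 ± 84.6 CPM in WT_PBS, with ranges that overlapped (log2 0.51, 95% interval -0.04 to 1.07, adjusted p = 0.335). For Ptgs2, Ptges2, Hpgds, Ptgis and Tbxas1 the log2 differences ran from -0.21 to 0.02. Ptgs2 and Rgs4 both lie on chromosome 1, 19.6 Mb apart, and the Ptgs2 difference was -0.10 (95% interval -0.58 to 0.38).

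Under Af, limma called 0 of the 9 between KO and WT, as did edgeR and DESeq2, and 0.0868% of all genes were called (0.0372% higher and 0.0496% lower). At an unadjusted p under 0.05 there was 1, Ptgis. It averaged 92.9 ± 8.52 CPM in KO_Af and 75.8 ± 1.66 CPM in WT_Af (SD, n = 3 each), with every KO_Af library above every WT_Af library (log2 0.29, 95% interval 0.10 to 0.48, limma adjusted p = 0.320). Separate ranges were seen for 13.8% of all genes. For Ptges3 the difference under Af was log2 -0.12 (95% interval -0.33 to 0.08, adjusted p = 0.590), with ranges that overlapped.

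Averaged over both exposures, Ptges3 was again the only one of the 9 called (log2 -0.33 ± 0.07 SE, a fold of 0.796, limma adjusted p = 0.0287), against 2.16% of all genes (1.04% higher and 1.12% lower). This average uses the same PBS libraries and adds no separate support. It was lost on leaving out KO_Af 14, KO_PBS 9, KO_PBS 10, WT_Af 19, WT_Af 20, WT_PBS 15 or WT_PBS 17, each in turn, with a limma adjusted p of 0.0533 to 0.0911. Whether the Af change differed between genotypes was called for 0 of the 9 by limma, edgeR and DESeq2, with 2 at an unadjusted p under 0.05 (Ptges3 and Ptgis), and for 0.0062% of all genes. The Af change was larger in KO than in WT by log2 0.41 for Ptges3 (95% interval 0.12 to 0.70, limma adjusted p = 0.268), 0.34 for Ptgis (0.08 to 0.61, adjusted p = 0.319) and 0.43 for Ptgs1 (-0.05 to 0.91, adjusted p = 0.525).

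**Figure D4:**
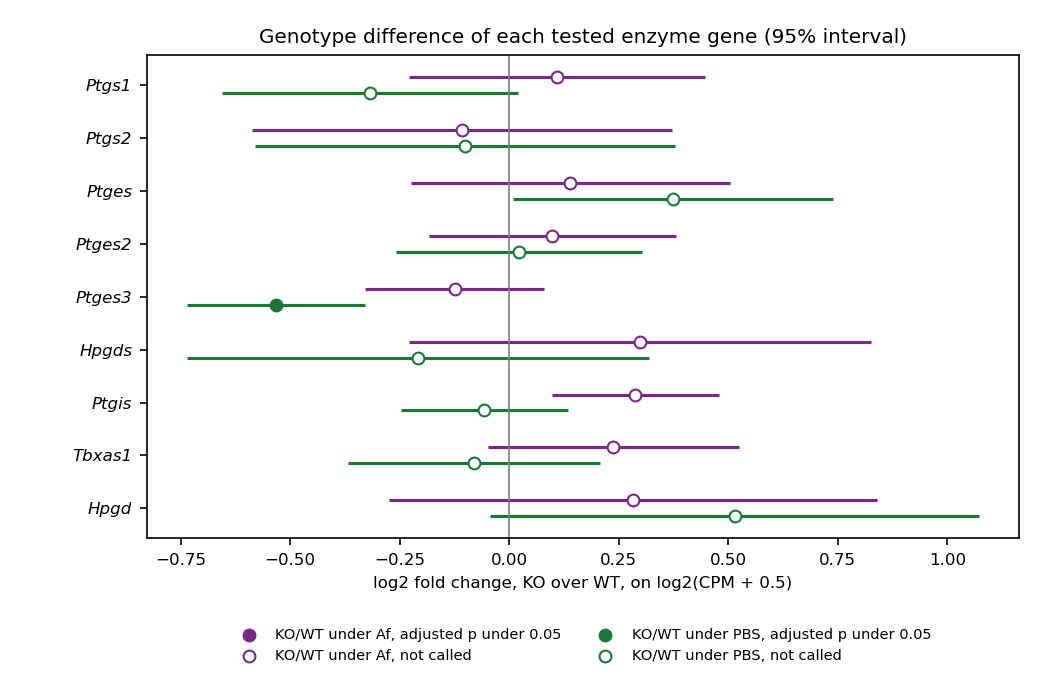
Log2 fold change of KO over WT (horizontal axis, log2(CPM + 0.5) scale) of the 9 tested enzyme genes, under Af (purple, upper) and under PBS (green, lower). Points are limma estimates, lines their 95% intervals, and filled points have an adjusted p under 0.05. Ptges3 under PBS (-0.53) is the only filled point, and the Ptgis interval under Af (0.10 to 0.48) is the only one under Af that does not reach 0.

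Since Ptges3 is also an HSP90 cochaperone, 15 genes of HSP90, its cochaperones and the HSP70 machinery were set beside it. Hspa4, Hspa8, Hsph1, Dnaja1 and Dnajb1 belong to the HSP70 machinery, so the list is one of chaperones more broadly. Under PBS, 14 of the 15 were called lower in KO and Cdc37 was not, against 1.66% of all genes called lower. Their median log2 was -1.09 against 0.01 over all genes. The largest drops were in Fkbp5, a steroid receptor cochaperone (log2 -3.13), Hsph1, a nucleotide exchange factor (-2.86), Dnajb1 (-2.15) and Dnaja1 (-1.79), both J-domain cochaperones. Hsp90aa1, the inducible HSP90, was at log2 -1.44, the constitutive Hsp90ab1 at -1.08, the HSP70 gene Hspa8 at -1.34 and the HSP70-HSP90 linker Stip1 at -1.12. The summed level of the 15 was 3078 to 3289 CPM in KO_PBS and 6774 to 8382 CPM in WT_PBS. Ptges3, at -0.53, changed less than 12 of the 14, Hspa4 (-0.42) and Ppid (-0.39) being the exceptions.

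Under Af, 2 of the 15 were called lower in KO, Hsph1 (log2 -1.49, limma adjusted p = 0.0122) and Dnaja1 (-0.87, adjusted p = 0.0462). Over all genes 0.0496% were called lower. The median log2 of the 15 was -0.43. The summed level was 4796 to 5485 CPM in KO_Af and 6579 to 7674 CPM in WT_Af. Within KO, 12 of the 15 were called higher under Af and 0 lower (median log2 0.55), against 28.7% and 29.2% of all genes. The KO_PBS libraries enter this comparison and the one under PBS. Within WT, 3 were called higher and 2 lower (median -0.06), against 26.2% and 25.6% of all genes. Whether the Af change differed between genotypes was called for 0 of the 15 by limma (14 at an unadjusted p under 0.05), and Hsp90aa1 had the smallest adjusted p (0.0590, log2 1.09). This list was known from earlier results of these data to differ between the genotypes, so its direction is not independent support. The Ptges3 window above held no GAANNTTC, which 4 of the 10 chaperone genes with a RefSeq window held (Chordc1, Dnaja1, Fkbp4 and Hsph1). The share over all windows was 7.86%. TGACG, which the Ptges3 window held, was in 5 of the 10, against 20.8% of all windows. The kappa B consensus, also held by Ptges3, was in 1 (8.46% of all). Of the sequences that Ptges3 lacked, CCAAT was in 7 of the 10 (37.4% of all) and TATAAA in 1 (13.6% of all). What these matches mean for the levels was not tested.

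**Figure D5:**
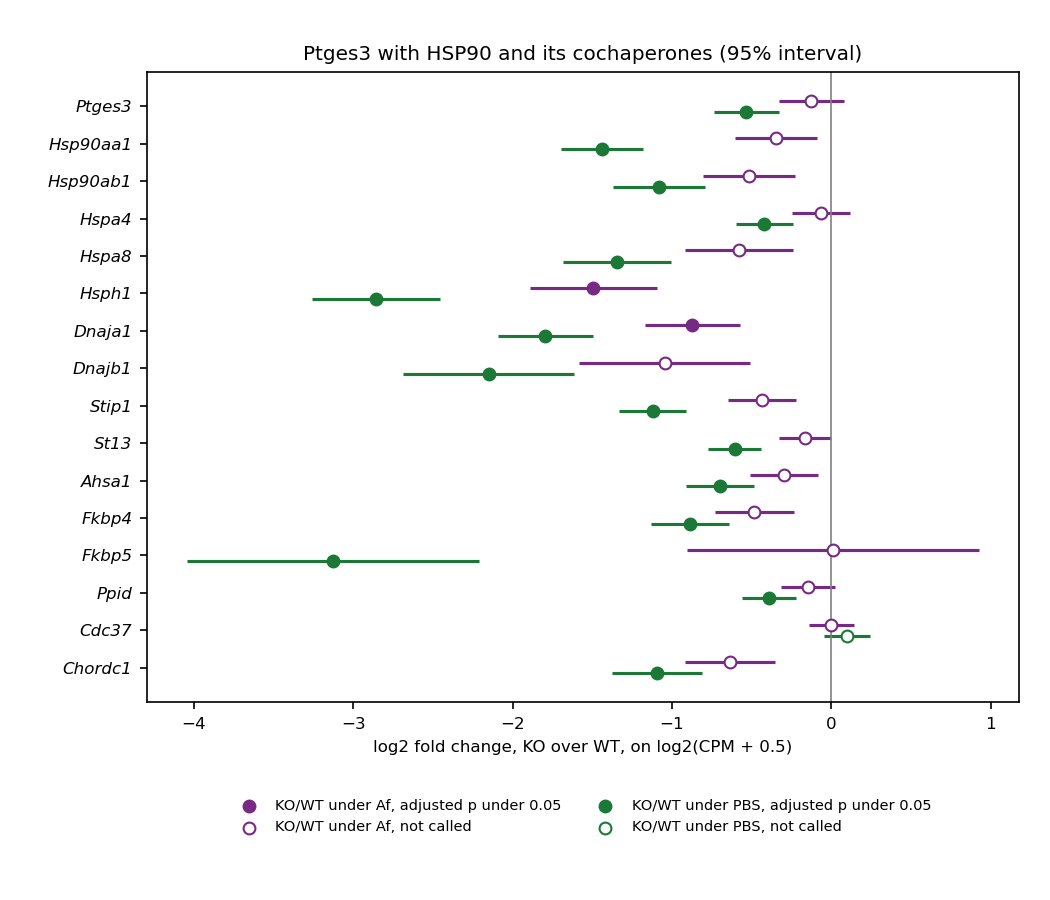
Log2 fold change of KO over WT (horizontal axis, log2(CPM + 0.5) scale) of Ptges3 and the 15 genes of HSP90, its cochaperones and the HSP70 machinery, under Af (purple, upper) and under PBS (green, lower). Points are limma estimates, lines their 95% intervals, and filled points have an adjusted p under 0.05. All green points but Cdc37 are filled and lie below 0, and of the purple points only Hsph1 and Dnaja1 are filled.

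Upstream of the cyclooxygenases, 21 genes of arachidonic acid release were listed and 16 tested. Under Af, 4 were called higher and 5 lower in KO, and 5 higher and 5 lower in WT. For this list and those that follow, the shares over all genes were 28.7% higher and 29.2% lower in KO. In WT they were 26.2% and 25.6%. The cytosolic phospholipase Pla2g4a, which frees arachidonic acid, averaged 37.5 ± 1.13 CPM in KO_Af and 20.9 ± 0.230 CPM in KO_PBS, and 31.8 ± 4.53 CPM in WT_Af and 20.6 ± 0.772 CPM in WT_PBS (SD, n = 3 each). Its relative Pla2g4c averaged 14.0 ± 7.03 CPM in KO_Af and 0.418 ± 0.107 CPM in KO_PBS, and 13.4 ± 1.69 CPM in WT_Af and 0.491 ± 0.185 CPM in WT_PBS. In log2 terms Pla2g4c changed by 3.85 in KO and 3.82 in WT, and Pla2g4a by 0.83 in KO and 0.60 in WT.

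Monoacylglycerol lipase Mgll, which yields arachidonic acid from an endocannabinoid, fell by 0.71 on the log2 scale in KO and by 0.60 in WT. Faah, the amidase for another endocannabinoid, fell by 0.84 in KO and by 0.68 in WT, and the secreted phospholipase Pla2g1b by 1.11 in KO and by 0.84 in WT. Daglb, a diacylglycerol lipase, was higher by log2 0.62 in KO and 0.64 in WT, and the secreted phospholipase Pla2g2e by 1.25 and 0.74 at levels of at most 1.42 CPM. Pla2g2a was at 0 reads in every library.

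Of 6 tested genes of other prostaglandin reductases and synthases, 3 were called higher and 1 lower in each genotype under Af. The lower one was Cbr2, a carbonyl reductase that is abundant in mouse lung. It averaged 718 ± 261 CPM in KO_Af and 2732 ± 199 CPM in KO_PBS, and 756 ± 223 CPM in WT_Af and 2748 ± 143 CPM in WT_PBS (SD, n = 3 each). That was a log2 change of -1.98 in KO and -1.90 in WT. Cbr2 is also known from club cells, whose 6 markers summed to 7312 to 14171 CPM in KO_Af and 18828 to 20939 CPM in KO_PBS, and in WT to 9137 to 9644 CPM under Af and 16136 to 19204 CPM under PBS; the part of these cells was not tested. Another carbonyl reductase, Cbr3, was higher by log2 1.32 in KO and 1.13 in WT, the aldo-keto reductase Akr1b8 by 0.98 and 0.97, and Fam213b, a prostaglandin F synthase, by 0.61 and 0.65.

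Downstream, 2 of 7 tested genes of prostaglandin transport and further breakdown were called higher and 1 lower in each genotype under Af. Ptgr1, a reductase that acts after Hpgd, was higher by log2 1.12 in KO and 0.89 in WT, opposite to Hpgd. The transporter gene Slco4a1 was higher by 1.66 in KO and 1.86 in WT, and Slco3a1 fell by 0.72 in KO and by 0.85 in WT. Slco2a1, the prostaglandin transporter that brings substrate to Hpgd, was not called (log2 -0.51 in KO, limma adjusted p = 0.0984; -0.23 in WT, adjusted p = 0.457).

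Of the 9 prostanoid receptors, 4 were called higher under Af in each genotype, with 3 called lower in KO and 2 in WT. The prostaglandin E2 receptor gene Ptger4 averaged 26.6 ± 4.02 CPM in KO_Af and 9.32 ± 0.876 CPM in KO_PBS, and 30.8 ± 4.47 CPM in WT_Af and 9.35 ± 0.906 CPM in WT_PBS (SD, n = 3 each), log2 changes of 1.46 in KO and 1.66 in WT. Ptger2, another receptor for prostaglandin E2, was higher by 0.87 in KO and 0.48 in WT. The prostacyclin receptor gene Ptgir was higher by 0.89 in KO and 1.58 in WT, and the prostaglandin D2 receptor gene Ptgdr by 1.44 and 1.72 from levels near 0.

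Called lower were Ptgfr, the prostaglandin F receptor gene (log2 -1.60 in KO and -1.67 in WT), and Ptgdr2, a second prostaglandin D2 receptor gene (-0.81 in KO and -0.89 in WT). The thromboxane receptor gene Tbxa2r was at 3.89 to 5.86 CPM in KO_Af and 11.4 to 12.3 CPM in KO_PBS, and in WT at 5.54 to 9.69 CPM under Af and 7.20 to 9.07 CPM under PBS. It was called lower in KO (log2 -1.13, limma adjusted p = 4.45e-04) and not in WT (log2 -0.20, adjusted p = 0.402), and the difference between those changes was not called (log2 -0.93, adjusted p = 0.219). In these 4 lists limma called 0 of 38 tested genes between KO and WT under PBS and 0 under Af, with 2 and 3 at an unadjusted p under 0.05.

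Genes whose centred log2 levels ran closest to each enzyme gene over the 12 libraries were taken by the root mean square of the difference. For Ptges they were Apobec1 (0.175), Relb (0.189) and Nfkb2 (0.199), of which Relb and Nfkb2 encode subunits of nuclear factor kappa B. For Tbxas1 they included Ptpn2 (0.125) and Snx5 (0.126), and for Ptgs1 they were Tsr1 (0.116), Rcan1 (0.123) and Tnfrsf23 (0.124). Ptges3 was closest to Tmem39a (0.0715), Uap1 (0.0847) and Tra2a (0.0940), and Hpgd to Prkg2 (0.164), Aim1l (0.221) and Pik3ip1 (0.243).

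Closest to Hpgds were Galc (0.188), Krt8-ps (0.201) and Ptger2 (0.202), to Ptgs2 Gbp11 (0.163), Spic (0.188) and Dscaml1 (0.193), to Ptges2 Pdhx (0.0539), Dhrs7b (0.0692) and Orc5 (0.0705), and to Ptgis Pcbp4 (0.0870), Ehd1 (0.0902) and Xaf1 (0.0956). Genes that change little are close to any other such gene on this measure, as for Ptges2 and Ptgis. All these values share the same 12 libraries and the same Af difference, and they describe likeness only.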

How the data were processed

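Per the submitters' processing notes, the authors used RSEM 1.3.0, STAR 2.7.6a and cutadapt 1.18, and the builds GRCm38 and GRCh38 are named without a role. Per the labels' protocols, the kits were Qiagen RNeasy for RNA and Illumina TruSeq mRNA for libraries. The values the authors deposited are a signal, CPM scaled by TMM. All values were whole multiples of 1 read (100%, tolerance 0.01), so reads were recovered by division. Identifiers matched GENCODE M21 for 49326 genes (99.5%).

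The 16126 genes that reached 1 CPM in 3 or more libraries were tested. The test was limma 3.58.1 (R 4.3.3) with a variance trend on log2(CPM + 0.5), which understates changes of low genes. It was 1 fit over 4 groups with 8 residual degrees of freedom, Benjamini-Hochberg adjusted over all genes and checked on simulated data. In the simulated data far fewer genes were changed than were called under Af here, so that check does not cover so broad a change. Alternatives were other pseudocounts, filters, scalings, variance models, array weights, group-wise fits, single libraries left out, and edgeR 4.0.16 and DESeq2 1.42.0 on recovered counts. Added after seeing the data were a fit without WT_PBS 17 and KO_Af 12 and edgeR on all genes with 10 reads or more. The permutation test of Ptgds was not among the planned tests either.

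The genes and lists were chosen with earlier results of these data known. Named were all 10 enzyme genes, called list genes (up to 6 a list by smallest p), the 3 genes of most like pattern (1 of those for Tbxas1 is not reported here) and Rgs4. Outside that rule, Kit, Pdpn, Pou2f3, Trpm5, Il25, Fkbp5, Hsp90ab1, Hspa4, Ppid, Cdc37, Pla2g2a and Slco2a1 were named after their values were seen. Promoter sequences are from RefSeq. Figures were drawn with matplotlib 3.10.9.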

Additional observations from a re-analysis of the deposited data

How the results depend on the processing

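No paired analysis was possible because the groups share no library numbers. Of 54 comparisons of an enzyme gene, 16 were called, and 10 of those calls held under every alternative run: Hpgd, Ptges, Ptgs1 and Tbxas1 under Af in both genotypes, and Hpgds and Ptges3 under Af in KO. Leaving out each library in turn, the number of enzyme genes called ran from 7 to 9 for Af in KO, 4 to 6 for Af in WT, 0 to 1 for KO against WT under PBS, 0 to 0 under Af, 0 to 1 for the average and 0 to 0 for the interaction. With no filter the average called 0. Array weights moved the counts to 4 for KO against WT under Af (Ptgis, Tbxas1, Hpgd and Ptges3), 2 under PBS, 3 for the average and 1 for the interaction (Ptgis, log2 0.50); the cause was not tested. Calls over all genes moved as well. For KO against WT under PBS (573) they were 373 with no filter, 2646 with array weights, 1124 with the compared groups alone and 1216 in DESeq2. Under Af (14) they were 9 at 5 CPM, 2204 with array weights, 3 with the compared groups alone and 187 in DESeq2. They were, for the average (349) 188 with no filter, 3224 with array weights and 1147 in DESeq2. For the interaction (1) they were 6 at pseudocount 2, 0 with no filter, at 5 CPM and without the trend, 5 rescaled to the same total, 1602 with array weights and 362 in DESeq2. Single libraries left out gave 130 to 428, 3 to 111, 103 to 813 and 0 to 187 for these 4 comparisons. Under Af, 6 of the 14 calls were higher, and 6 of 20 after rescaling to the same total.

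Every difference that changed sign was not called to begin with. For the Ptgs2 interaction (-0.01) the values were 2e-04 by median-of-ratios scaling, 0.0591 with array weights, 0.065 and 0.0518 in edgeR (all tested genes, and 10 reads or more) and 0.0793 in DESeq2. Array weights gave Hpgds 0.11 under PBS, Ptges2 -0.0037 and Ptges -0.0071 under Af, and interactions of -0.0499 for Ptges2, -0.0162 for Hpgds and 0.43 for Hpgd. Without WT_PBS 17 and KO_Af 12, Ptgs2 was 0.11 under PBS and 0.0418 on average, Ptges2 -0.0115 under Af and -0.0397 for the interaction, and Hpgds -0.0142 on average. With single libraries left out, KO minus WT under PBS ran from -0.37 to 0.0876 for Hpgds, -0.0704 to 0.12 for Ptges2, -0.42 to 0.11 for Ptgs2 and -0.15 to 0.0057 for Tbxas1. Under Af it ran from -0.0115 to 0.19 for Ptges2, -0.0188 to 0.28 for Ptges and -0.027 to 0.27 for Ptgs1. The average ran from -0.0381 to 0.19 for Hpgds and -0.26 to 0.001 for Ptgs2, and the interaction from -0.47 to 0.0379 for Hpgd, -0.0338 to 0.17 for Ptges2 and -0.22 to 0.31 for Ptgs2. At 2 to 24 reads per library, smaller Ptgds differences could not be detected.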
